A study of Homo sapiens with 72 samples.

Results

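The transcription inhibitor triptolide and the translation inhibitor homoharringtonine were compared at 1000 nM in U2OS cells, a human osteosarcoma line. The 6 wells, 3 for each compound, were taken by their dose and compound labels from the 72 wells of the series. In the series, U2OS cells in 24-well plates received DMSO or 1 of 6 compounds at 3 doses for 12 h, and polyadenylated RNA of each well was sequenced with a stranded kit. All 18 DMSO wells of the same cells served to show in which direction each compound moved a gene. Both groups share the cell line, the medium and the 12 h of treatment, and differ in the compound alone as far as the labels say. A single cell line was used, and the labels do not say whether wells of a group were separate cultures, so p-values measure the spread between wells, which may be technical.

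Triptolide, an epoxide-bearing diterpenoid, binds the ERCC3 (XPB) helicase of the general transcription factor TFIIH and blocks the start of transcription by RNA polymerase II. After such a block, the mRNAs of a cell are those made earlier, and short-lived mRNAs are lost before long-lived ones. Homoharringtonine, a plant alkaloid, binds the ribosome at the peptidyl transferase centre and stops the early steps of elongation, so that mRNA is made but new protein is not. Translation inhibitors are known to raise and prolong the mRNAs of immediate early genes, an effect called superinduction. The comparison asks which gene classes these blocks separate.

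The triptolide wells held 9628355, 10719474 and 57386507 expected counts and the homoharringtonine wells 42047207, 46769026 and 57390919, against 460014 to 56381685 in DMSO wells. Thus replicates 1 and 2 of triptolide were the shallowest of the 6 wells, and they also showed the fewest genes with at least 10 counts, 12673 and 12913 against 16808 to 18337 in the other 4 wells. Levels are given as CPM, counts per 1000000 counts of a library scaled by TMM, and each is a share of its library. DMSO replicate 10 held 460014 counts, against 18379466 in the next shallowest DMSO well, so a single count there weighs more in CPM. The lowest and highest DMSO values below can therefore come from that well alone, and so can an overlap with the DMSO range. In bulk wells, fewer cells and less RNA per cell cannot be told apart, and a share says nothing of the amount of RNA. Of the 10 mesenchymal and osteosarcoma markers, 8 were tested, their summed level was 15975 to 18077 CPM with triptolide, 3259 to 3588 CPM with homoharringtonine and 6519 to 8070 CPM in DMSO wells, and 7 of the 8 were higher with triptolide. TWIST1 and COL1A2 stayed under 0.4 CPM in all wells. A list of 8 blood cell markers included the hemoglobin genes HBA1 and HBB. Its summed level was 0.603 to 0.911, 2.75 to 5.19 and 0 to 0.828 CPM in the same order. Of the 8, 7 stayed under 1 CPM in all 6 wells, and the other was HBA1, at 2.07 to 4.34 CPM with homoharringtonine. Summed epithelial markers stood at 12.0 to 13.9, 18.4 to 21.4 and 10.4 to 17.7 CPM. Endothelial markers stood at 2.17 to 4.81, 8.42 to 10.4 and 1.86 to 3.40 CPM.

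The compounds differed at most of the genes measured. Among the 17704 genes that entered the test, 4008 (22.6%) stood higher under triptolide and 6360 (35.9%) higher under homoharringtonine, at an adjusted p under 0.05 and a log2 fold change above 1. The wells of both compounds did not overlap in CPM for 12769 genes (72.1%). All fold changes below are log2 values of triptolide minus homoharringtonine unless DMSO is named, and genes past both thresholds are called higher with 1 compound. Each SE was derived from the fold change and its test statistic, and may understate counting error where a group held few counts. The median over all genes was -0.31, and scaling by library sizes alone moved the genes by a further -0.31. Among the 4008 genes higher with triptolide, the DMSO level lay between both compounds for 3354 (83.7%), with medians of 0.93 for triptolide minus DMSO and -1.14 for homoharringtonine minus DMSO. Among the 6360 genes higher with homoharringtonine, DMSO lay between them for 4679 (73.6%), with medians of -1.79 for triptolide minus DMSO and 1.01 for homoharringtonine minus DMSO. Both compounds lay below DMSO at 1136 (17.9%) of these 6360 genes. These positions use the sign of the log2 values against DMSO, without a threshold. Past both thresholds, triptolide was higher than DMSO at 1788 (44.6%) and homoharringtonine lower at 2192 (54.7%) of the 4008. Of the 6360, triptolide was lower at 4180 (65.7%) and homoharringtonine higher at 3193 (50.2%) and lower at 242 (3.8%).

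Against DMSO, 2532 genes (14.3%) were higher and 5244 (29.6%) lower with triptolide, and 3856 (21.8%) were higher and 3536 (20%) lower with homoharringtonine. Both comparisons use the same DMSO wells and are given side by side. Without DMSO replicate 10, 2528 genes were higher and 5242 lower with triptolide, and 3888 were higher and 3513 lower with homoharringtonine. The split for triptolide depended on the scaling, with 3577 genes higher and 4725 lower under DESeq2 size factors and 837 higher and 6748 lower under library sizes alone, so that 32.6%, 43.1% and 11% of the calls were upward. For homoharringtonine the upward share of calls was 52.2%, 59.7% and 50.7% in the same order.

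The genes with the greatest excess under homoharringtonine included immediate early transcription factors and inhibitors of NF-kB and MAP kinase signalling. EGR1 (ENSG00000120738, chr5:138465479-138469303), an immediate early zinc finger factor, was at 1.2, 9.29 and 4.32 CPM in the triptolide wells and 6700, 5772 and 5377 CPM in the homoharringtonine wells, against 42 to 589 CPM in DMSO wells (median 67.2). Every homoharringtonine well lay above every DMSO well and every triptolide well below them, and the log2 fold change between the compounds was -10.34 ± 0.66 (SE, adjusted p = 5e-06). FOS (ENSG00000170345, chr14:75278826-75282230), a subunit of the AP-1 factor, was at 1.07, 1.57 and 1.31 CPM with triptolide and 1090, 940.3 and 788 CPM with homoharringtonine, and its log2 fold change was -9.56 ± 0.25 (SE, adjusted p = 7.6e-07). Its DMSO wells ranged from 7.89 to 130.1 CPM with a median of 11.4, so that the wells fell into the same order as for EGR1. EGR2 and EGR4, factors of the same family, had log2 fold changes of -9.92 and -10.09. EGR4 was at 0, 0.845 and 0.21 CPM with triptolide and from 0 to 72.5 CPM in DMSO wells (median 0.133), so that these overlapped, and its rise to 382, 306 and 241 CPM with homoharringtonine passed the test against DMSO (10.09).

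NFKBIA (ENSG00000100906, chr14:35401079-35404749) encodes IkappaB alpha, which holds NF-kB in the cytoplasm and is itself made on NF-kB activation. It was at 0.134, 0.121 and 0.21 CPM with triptolide and 248, 190.3 and 194 CPM with homoharringtonine, against 26 to 42.2 CPM in DMSO wells. The 3 groups did not overlap, and the log2 fold change between the compounds was -10.21 ± 0.31 (SE, adjusted p = 9.6e-07). NFKBIE, another IkappaB gene, followed at -9.42, DUSP2, a phosphatase of MAP kinases, at -9.89, SERTAD1, a regulator of cyclin D kinases, at -9.28, and WNT9A, a Wnt ligand, at -9.67. IRGM, an immunity-related GTPase, had no count in the triptolide wells and 4024 counts in the homoharringtonine wells, at 25, 29.7 and 26.4 CPM, at least 713.2-fold higher against a floor of 3 counts over the group. BAMBI, a decoy receptor of the BMP pathway, and CCR4, a chemokine receptor, each had 1 count in the triptolide wells, against 2161 and 1873 counts. The ratios of homoharringtonine to triptolide were 1149 (95% counting interval 206.0 to 45402) for BAMBI and 996 (179 to 39354) for CCR4, and the intervals cover counting error only.

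The bases just before the transcription start of NFKBIA and FOS are shown because the sequence classes described later occur in them. Both are taken from RefSeq promoters of GRCh38.p14, run 5′ to 3′ on the gene's strand and end at the base before the start. Capitals mark a TATA box (TATAAA or its reverse complement) in both and, in NFKBIA, a kappa B site (GGAATTTCC or its reverse complement).
NFKBIA, chr14:35404750-35404999, minus strand: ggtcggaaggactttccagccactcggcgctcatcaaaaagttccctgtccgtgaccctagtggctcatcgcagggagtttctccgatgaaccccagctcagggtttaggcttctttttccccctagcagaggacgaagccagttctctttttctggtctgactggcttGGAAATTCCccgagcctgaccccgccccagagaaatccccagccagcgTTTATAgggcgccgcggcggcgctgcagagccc
FOS, chr14:75278578-75278827, plus strand: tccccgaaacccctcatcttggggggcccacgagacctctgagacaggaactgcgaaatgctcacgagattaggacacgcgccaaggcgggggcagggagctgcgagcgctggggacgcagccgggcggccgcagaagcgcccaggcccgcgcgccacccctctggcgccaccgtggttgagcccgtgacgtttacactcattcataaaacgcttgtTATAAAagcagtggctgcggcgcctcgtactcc
In both promoters the TATA box begins 33 bases before the start. They are not typical of the leading genes. The same window of EGR1, EGR2, EGR4, DUSP2, WNT9A, BAMBI, CCR4 and SERTAD1 held no TATA box or kappa B site in these letters. Of the 12 genes that led in the direction of homoharringtonine, FOS and CCR4 hold the AU-rich nonamer (capitals) in the 3′ UTR. This nonamer is a form of the element through which decay factors shorten the life of an mRNA. It is printed with its surroundings from GRCh38.
FOS, chr14:75282060-75282089, plus strand: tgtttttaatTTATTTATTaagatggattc
CCR4, chr3:32955031-32955060, plus strand: cagatctcaaTTATTTATTgtaaaggatta

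The genes with the greatest excess under triptolide mostly encode secreted, cell surface and glycosylating proteins. COL4A1 (ENSG00000187498, chr13:110148963-110307157), a chain of basement membrane collagen, was at 1362, 1254 and 889 CPM with triptolide and 20.9, 16 and 14.7 CPM with homoharringtonine, against 303 to 495 CPM in DMSO wells. The DMSO wells lay between the compounds without overlap, and the log2 fold change between the compounds was 5.97 ± 0.23 (SE, adjusted p = 1.2e-06). CCDC80 (ENSG00000091986, chr3:112596797-112649530), a secreted matrix protein, was at 622, 516 and 529.7 CPM and 8.84, 7.66 and 7.63 CPM in the same order, with DMSO at 147 to 187 CPM and a log2 fold change of 6.00 ± 0.18 (SE, adjusted p = 9.6e-07). SDC1, the heparan sulfate proteoglycan syndecan 1, was at 539, 556 and 485 CPM against 12.7, 9.01 and 8.01 CPM, with DMSO at 123 to 201 CPM. For these 3 genes, homoharringtonine minus DMSO (-4.49, -4.39 and -4.0) was larger in size than triptolide minus DMSO (1.60, 1.72 and 1.74). The adhesion molecule L1CAM (5.81), the protocadherin PCDHB8 (5.61), the sialomucin PODXL2 (5.27) and the TGF-beta co-receptor ENG (5.12) also reside at the cell surface. LARGE2 (5.71) and B4GAT1 (5.65) are glycosyltransferases that act on alpha-dystroglycan, and TMTC4 (5.17) is a mannosyltransferase of the endoplasmic reticulum. LRRC3 (5.83) and the centrosomal protein gene LRRC45 (5.17) complete the 12. B4GAT1, PCDHB8, LRRC45 and ENG lay within a log2 fold change of 1 of DMSO under triptolide (0.45, 0.61, 0.76 and 0.57), and of these the triptolide wells of B4GAT1, PCDHB8 and ENG overlapped the DMSO range while those of LRRC45 lay just above it.

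Before the start of COL4A1 the same window holds no TATA box in these letters and 1 CCAAT box (CCAAT or its reverse complement, capitals), again from RefSeq on GRCh38.p14.
COL4A1, chr13:110307158-110307407, minus strand: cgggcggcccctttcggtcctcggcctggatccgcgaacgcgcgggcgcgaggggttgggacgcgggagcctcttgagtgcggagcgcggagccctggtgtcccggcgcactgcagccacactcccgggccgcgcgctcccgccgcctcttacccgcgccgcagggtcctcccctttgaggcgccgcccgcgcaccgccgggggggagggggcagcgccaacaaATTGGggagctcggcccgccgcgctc

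**Figure D1:**
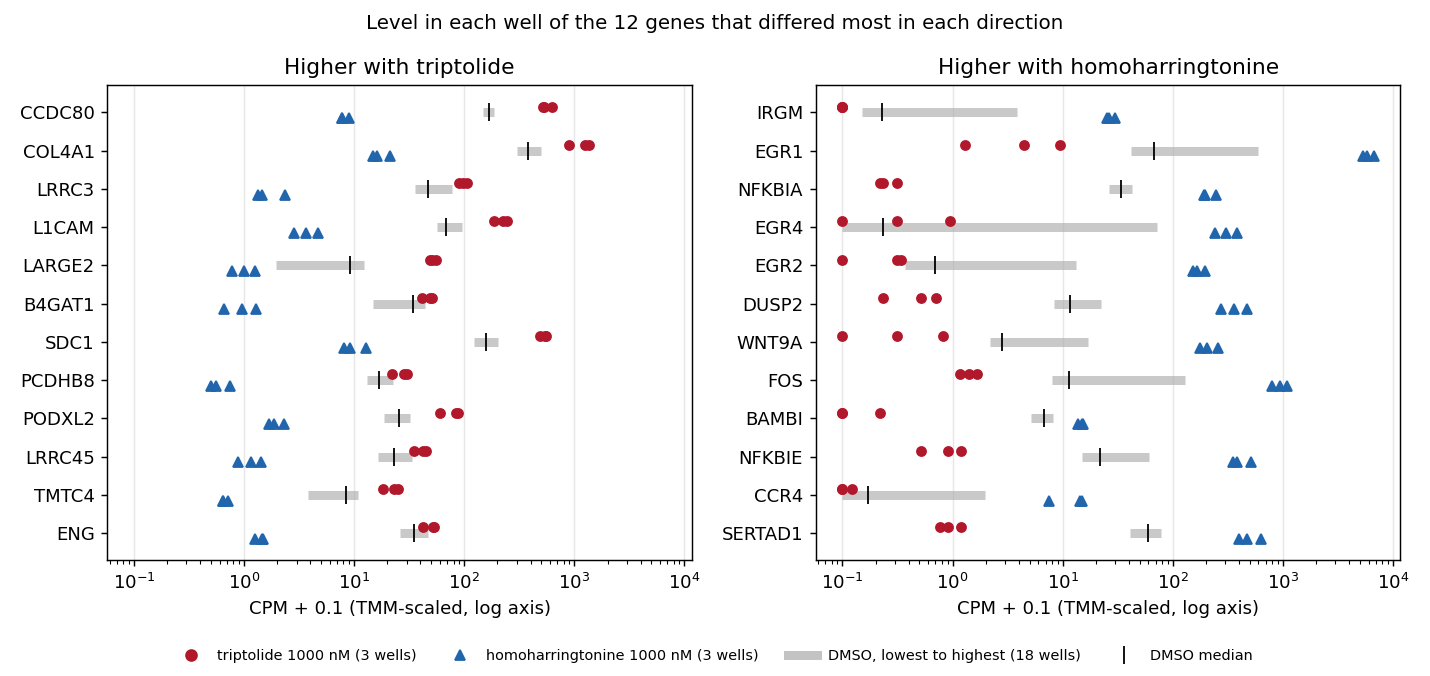
Level in each well of the 12 protein-coding genes that differed most in each direction, as TMM-scaled CPM plus 0.1 on a log axis; circles are triptolide wells, triangles homoharringtonine wells, grey bars the range of 18 DMSO wells and ticks their median. The compounds did not overlap for any of the 24 genes, which the choice of genes required; EGR1 spans from 1.20 CPM in a triptolide well to 6700 CPM in a homoharringtonine well.

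Immediate early transcription factors are made within minutes of a stimulus from mRNAs that decay quickly. Of 30 in the list, 27 were higher with homoharringtonine and the other 3 passed in neither direction, and the list median was -6.04, against -0.31 over all genes. Against DMSO, 23 were lower with triptolide (median -3.56) and 20 were higher with homoharringtonine (median 2.27). SRF, which drives many of these genes, was among the 3, at 77.8, 72.6 and 62.6 CPM with triptolide and 84, 68 and 57 CPM with homoharringtonine, and these wells overlapped. MYC, a short-lived growth regulator, was at 5.34, 1.21 and 2.43 CPM with triptolide and 138, 92.4 and 97.2 CPM with homoharringtonine, and 1 of the 3 homoharringtonine wells lay within the DMSO range of 122 to 169.6 CPM, the other 2 below it (homoharringtonine minus DMSO -0.37). The difference for MYC, -5.34 ± 0.47 (SE, adjusted p = 2.3e-05), went with triptolide wells below DMSO, and no homoharringtonine well lay above DMSO, unlike for EGR1 and FOS.

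Inhibitors that these pathways induce against themselves followed the same direction. Of 18 MAP kinase feedback inhibitors tested of 20 listed, 16 were higher with homoharringtonine (median -4.01, or -3.55 with the 1 gene that had no count in triptolide wells set to its bound). DUSP1, the phosphatase of active MAP kinases, was at 0.267, 0.241 and 0.21 CPM with triptolide, 95.5, 89.5 and 71.8 CPM with homoharringtonine and 13 to 26.7 CPM in DMSO wells, with no overlap between any groups. Against DMSO, 15 of the list were lower with triptolide, and 9 were higher and 2 lower with homoharringtonine. Of 18 NF-kB subunits and feedback genes, 16 were higher with homoharringtonine (median -3.89), and of the 18, 13 stood above DMSO with homoharringtonine and 9 below DMSO with triptolide. TNIP1, an adaptor that limits NF-kB signalling, passed in neither direction at -0.85, but was called higher with homoharringtonine with library sizes alone (-1.14).

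Secreted signalling proteins leaned the same way. Of 23 cytokines and growth factors tested of 25, 16 were higher with homoharringtonine and 1 with triptolide (median -2.40). CXCL8, the neutrophil attractant interleukin 8, was at 0.534, 0.483 and 1.8 CPM and 45.5, 62.3 and 81.1 CPM, and BMP2 at 0.134, 0.483 and 0.514 CPM and 32.6, 28.7 and 29.9 CPM, with triptolide first. The triptolide wells of CXCL8 fell within the DMSO range of 0.371 to 7.43 CPM, and those of BMP2 fell below the DMSO range of 5.12 to 7.45 CPM. Of 15 AU-rich element decay factors and BTG/TOB genes, 10 were higher with homoharringtonine (median -2.21), led by ZFP36, tristetraprolin, at 0, 0.603 and 0.701 CPM against 177, 136 and 104 CPM. HNRNPD, an AU-rich element binding protein of the same list, was the 1 member higher with triptolide (1.05, but 0.74 with library sizes alone and 0.92 without triptolide replicate 3, short of the threshold).

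The circadian clock is a loop of activators and the repressors that they induce. Of 15 circadian clock genes, 13 were higher with homoharringtonine (median -3.64, or -3.31 with 1 gene at its bound), 11 stood above DMSO with homoharringtonine and 9 below DMSO with triptolide. NR1D1, the clock repressor REV-ERB alpha, was at 0.534, 3.02 and 1.12 CPM with triptolide, 751, 582 and 508 CPM with homoharringtonine and 12.8 to 89.2 CPM in DMSO wells. All 3 groups were apart for this gene, whereas CLOCK, a driver of the same loop, overlapped at 41.6, 48.8 and 82.2 CPM and 28.1, 44.3 and 66.8 CPM. Of 17 Notch, Wnt and Hedgehog feedback genes, 12 were higher with homoharringtonine and 2 with triptolide (median -2.61), HES1, the Notch target, at -6.72 among the former. Of 20 TGF-beta and BMP response genes, 13 were higher with homoharringtonine and 4 with triptolide (median -2.37), and against DMSO 4 were higher and 14 lower with triptolide and 5 higher and 6 lower with homoharringtonine (medians -2.39 and -0.68). Those higher with triptolide included the matrix protein LTBP2 (3.91) and the ligand TGFB2 (3.75), while the inhibitor of differentiation ID4 (-7.74) was among those higher with homoharringtonine.

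YAP and TEAD targets were divided, with 8 of 16 higher with homoharringtonine and 2 with triptolide (median -1.39). ANKRD1, a nuclear co-regulator, was at 1.74, 3.14 and 3.62 CPM with triptolide and 516, 498 and 582 CPM with homoharringtonine, and the receptor kinase AXL at 1927, 1962 and 1949 CPM and 707, 511 and 584 CPM. The order of the compounds was thus opposite for these 2 targets. Hypoxia-inducible factor targets held 10 genes higher with homoharringtonine and 5 with triptolide of 19 (median -1.01), with KDM3A, a histone demethylase, at -5.07 and CA12, a cell surface carbonic anhydrase, at 4.52. For 20 interferon-stimulated genes tested of 23 the counts were 6 and 3 in the same order (median -0.42), and IRF1, a factor that is itself short-lived, stood at 0.134, 0.483 and 0.257 CPM against 179, 137 and 123 CPM.

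Zinc finger genes, the largest family of transcription factors, separated the compounds as a class. Of 455 genes of the ZNF series tested, 368 were higher with homoharringtonine and 18 with triptolide, and the median was -3.52, where 35.9% and 22.6% of all genes passed. Against DMSO, 360 of the 455 were lower and 11 higher with triptolide (median -2.44), and 208 were higher and 31 lower with homoharringtonine (median 0.87). ZNF671 was at 0, 0.121 and 0.117 CPM with triptolide and 37.4, 44.3 and 43.9 CPM with homoharringtonine, and ZNF416 at 0, 0 and 0.14 CPM and 31.1, 49.6 and 50.3 CPM. DMSO wells lay between, at 4.67 to 9.29 CPM for ZNF671 and 4 to 18.6 CPM for ZNF416. ZNF358 went the other way, at 117, 116 and 87.6 CPM against 12.7, 7.47 and 6.88 CPM (log2 fold change 3.46 ± 0.28, SE, adjusted p = 1.4e-05). Many genes of this family are close copies of each other, and how reads were divided among them rests on the estimates of RSEM.

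HOX genes hold positional identity along the body axis. Of 28 tested, 18 stood below DMSO with triptolide (median -1.52) and 17 with homoharringtonine (median -1.29), and the median difference between the compounds was -0.09. Between the compounds, 9 were higher with homoharringtonine and 4 with triptolide, or 10 and 1 with library sizes alone. HOXC13 was at 2.94, 3.26 and 3.25 CPM against 24.4, 19.8 and 16.3 CPM and HOXB9 at 34.7, 34 and 43.3 CPM against 12.3, 12.1 and 10.8 CPM, triptolide first, so the order of the compounds differed between members.

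The target of triptolide itself did not differ between the compounds past the threshold: ERCC3 was at 91.4, 82 and 86.8 CPM with triptolide, 78.7, 81 and 71.9 CPM with homoharringtonine and 37.2 to 79.1 CPM in DMSO wells (log2 fold change 0.06 ± 0.17, SE, adjusted p = 0.75). The sign of this small difference turned with library sizes alone (-0.24) and without triptolide replicate 3 (-0.003). EIF4E, the cap-binding protein that the study lists as the target of homoharringtonine, was at 19.6, 21.4 and 35.7 CPM with triptolide and 55, 102 and 111 CPM with homoharringtonine (log2 fold change -1.89 ± 0.37, SE, adjusted p = 0.002). Of the homoharringtonine wells of EIF4E, 2 lay within the DMSO range of 47.1 to 109.9 CPM and 1 just above it, and the triptolide wells lay below it.

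Among other TFIIH subunits, the kinase CDK7 stood out at 1.6, 2.65 and 2.12 CPM with triptolide and 134, 169 and 199 CPM with homoharringtonine, against 26.6 to 44.6 CPM in DMSO wells, and 5 of 10 subunits were higher with homoharringtonine (median -0.69). The log2 fold change of CDK7 was -6.39 ± 0.30 (SE, adjusted p = 2.1e-06). RNA polymerase II subunits were divided, with 3 of 12 higher with triptolide and 2 with homoharringtonine (median 0.16), or 1 and 2 with library sizes alone (median -0.16). POLR2A, the catalytic subunit, was at 286, 301 and 276 CPM with triptolide, 850.5, 729 and 689.9 CPM with homoharringtonine and 236 to 348 CPM in DMSO wells. It was thus at the DMSO level with triptolide (-0.01) and above it with homoharringtonine (1.39). Of 22 factors that hold or release paused polymerase (P-TEFb, 7SK and elongation factors), 14 were higher with homoharringtonine and 1 with triptolide (median -2.33). MEPCE, which caps 7SK RNA, was at 5.07, 7.72 and 5.77 CPM against 378, 284 and 242 CPM, and the elongation factor ELL at 3.6, 2.05 and 2.76 CPM against 89.8, 69.3 and 59 CPM. Of the 5 subunits of the SNAPC complex, which starts snRNA transcription, 3 were higher with homoharringtonine (median -3.84). SNAPC1 reached 1785, 2493 and 4054 CPM there, while its triptolide wells at 120.5, 159 and 226 CPM fell within the DMSO range of 97.4 to 481 CPM.

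Nonsense-mediated decay clears transcripts with early stop codons while they are translated, and small nucleolar RNA host genes and SR protein genes are known for such transcripts. Of 22 small nucleolar RNA host genes tested of 23, 15 were higher with homoharringtonine and 2 with triptolide (median -1.83). Against DMSO, 12 were higher and 4 lower with homoharringtonine, and 1 was higher and 10 lower with triptolide. SNHG12 was at 3.47, 3.14 and 3.67 CPM with triptolide, 69.8, 60.03 and 49.1 CPM with homoharringtonine and 6.65 to 14.9 CPM in DMSO wells. DANCR, of the same list, was the reverse at 224, 241 and 282 CPM against 34.3, 36.1 and 31.6 CPM, with DMSO at 103 to 160.4 CPM, so that members stood on both sides. Of 14 SR splicing factors, whose genes hold poison exons, 11 were higher with homoharringtonine (median -2.04), with SRSF6 at 16.1, 21 and 23.3 CPM against 411, 434 and 456 CPM and SRSF4 at -4.85. SRSF9 was higher with triptolide (1.25, but 0.95 with library sizes alone). Against DMSO, 4 of the 14 SR factors were higher with homoharringtonine and 7 were lower with triptolide. Of 10 CDC-like and DYRK kinases, of which the CDC-like kinases phosphorylate SR proteins, 9 were higher with homoharringtonine (median -4.45), CLK1 at 0.401, 1.33 and 0.467 CPM against 15.7, 36.1 and 43.2 CPM and CLK2 at 0.534, 0.965 and 0.771 CPM against 38.9, 36.5 and 30.6 CPM. Against DMSO, 9 of the 10 kinases were lower with triptolide, while 5 were higher and 1 lower with homoharringtonine. Among 14 factors of nonsense-mediated decay, 7 were higher with homoharringtonine and 1 with triptolide (median -1.03), SMG8 at -5.88 and SMG5 at 1.54. Of these 14, 3 stood above DMSO with homoharringtonine and 4 below it with triptolide.

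The mRNAs of cytosolic ribosomal proteins held a larger share of the libraries with triptolide. Cytosolic ribosomal protein genes took 9.37%, 10.1% and 9.04% of the counts with triptolide, 6.55%, 5.71% and 4.98% with homoharringtonine and 5.63% to 7.94% in DMSO wells. The triptolide wells lay above all others (exact permutation test, two-sided p = 0.1, the smallest p that 3 against 3 wells allow, and 0.125 adjusted over 5 such shares). Of 77 tested, 38 were higher with triptolide and the other 39 passed in neither direction (median 0.98), the count higher with triptolide being 41 with DESeq2 size factors and 19 with library sizes alone, and RPS2 was at 8926, 9531 and 7033 CPM against 3197, 2230 and 1781 CPM. Against DMSO the median was 0.84 with triptolide and -0.27 with homoharringtonine. The count above DMSO with triptolide followed the scaling: 22 with TMM, 45 with DESeq2 size factors and 0 with library sizes alone by edgeR, where 45 had an unadjusted p under 0.05 and the median was 0.40.

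Elongation factors held 3 genes higher with triptolide of 8 (median 0.73), or 2 with library sizes alone, where 1 was higher with homoharringtonine, EIF5A at 1768, 1982 and 1571 CPM against 412, 308 and 282 CPM, while EEF1A1 overlapped at 10011, 9145 and 17600 CPM and 6250, 9666 and 9952 CPM. Of 13 initiation factors of the eIF4F group and its 4E-BP inhibitors, 5 were higher with triptolide and 3 with homoharringtonine (median 0.62), but 2 and 3 with library sizes alone. EIF4EBP1, which sequesters EIF4E, was at 258, 270.3 and 190.4 CPM against 28.2, 20.2 and 15.7 CPM, and the helicase EIF4A2 at 35.8, 41.5 and 69.8 CPM against 444, 769.8 and 885 CPM. The helicase thus went opposite to the inhibitor, with DMSO at 68.4 to 186 CPM and 72.7 to 156 CPM for EIF4A2 and EIF4EBP1. Of 20 cytosolic aminoacyl-tRNA synthetases, 7 were higher with triptolide and 2 with homoharringtonine (median 0.59), but 3 and 3 with library sizes alone. Ribosome biogenesis genes, which act in the nucleolus, went against the ribosomal proteins: 25 of 37 were higher with homoharringtonine and 2 with triptolide (median -1.71), with BRIX1 at 0.667, 2.17 and 1.99 CPM against 68.5, 78.3 and 121 CPM and BOP1 at 1.35. Against DMSO, 19 of these 37 were lower with triptolide, while 8 were higher and 3 lower with homoharringtonine.

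The 13 mRNAs that mitochondria make with a polymerase of their own were all higher with triptolide (median 2.42), with each of the 3 scalings. They took 0.949%, 0.768% and 1.09% of the counts with triptolide, 0.156%, 0.262% and 0.285% with homoharringtonine and 0.138% to 0.367% in DMSO wells. No triptolide well overlapped a well of either other group (exact permutation test against homoharringtonine, two-sided p = 0.1, adjusted p = 0.125). MT-ND6, the 1 of them encoded on the light strand, had the largest difference at 84.6, 76.5 and 68.1 CPM against 4.62, 5.87 and 8.04 CPM (log2 fold change 3.50 ± 0.28, SE, adjusted p = 1.3e-05), with DMSO at 5.31 to 22.8 CPM. Against DMSO the list median was 2.36 with triptolide, all 13 passing, and -0.09 with homoharringtonine. Of 75 nuclear genes of oxidative phosphorylation, 35 were higher with triptolide and 2 with homoharringtonine (median 0.96), or 17 and 3 with library sizes alone, NDUFV1, a subunit of complex I, at 316, 331 and 260.0 CPM against 102, 73.1 and 64 CPM. The number of these above DMSO with triptolide was 32 with TMM, 51 with DESeq2 size factors and 1 with library sizes alone. Mitochondrial ribosomal proteins did not share the direction, with 23 of 75 (30.7%) higher with homoharringtonine and 10 (13.3%) with triptolide (median -0.24). Over all genes the shares were 35.9% and 22.6% and the median -0.31, so neither share of the list was above that of all genes. Single members ranged widely, with MRPL44 at -5.67 and MRPL24 at 1.91.

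Of 17 glycolysis enzymes, 11 were higher with triptolide (median 1.20), or 6 with library sizes alone, and PGAM1 was at 1455, 1501 and 1694 CPM against 244, 221 and 204 CPM. HK2, the hexokinase that opens the pathway in tumour cells, was the 1 member higher with homoharringtonine, at 20.8, 22.1 and 20.6 CPM against 84.9, 81.6 and 67.8 CPM, and stood at the DMSO level there (0.07). Lysosome genes, 25 in number, held 13 higher with triptolide and 4 with homoharringtonine (median 1.13), or 10 and 5 with library sizes alone. The protease gene CTSL was at 2.70 and the autophagy receptor SQSTM1 at -2.48. SQSTM1 was at 314, 333 and 271 CPM with triptolide, within the DMSO range of 305 to 507 CPM in 2 of 3 wells, and at 2021, 1484 and 1264 CPM with homoharringtonine. Proteasome subunits differed little as a list (median 0.23 over 37, -0.08 with library sizes alone), with 5 higher with triptolide and 6 with homoharringtonine, or 2 and 6 with library sizes alone. Of 22 genes of sterol and fatty acid synthesis, 8 (36.4%) were higher with homoharringtonine and 6 (27.3%) with triptolide, near the 35.9% and 22.6% of all genes. The list median was -0.38, and SCD, a desaturase higher with triptolide, was at 2.53.

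**Figure D2:**
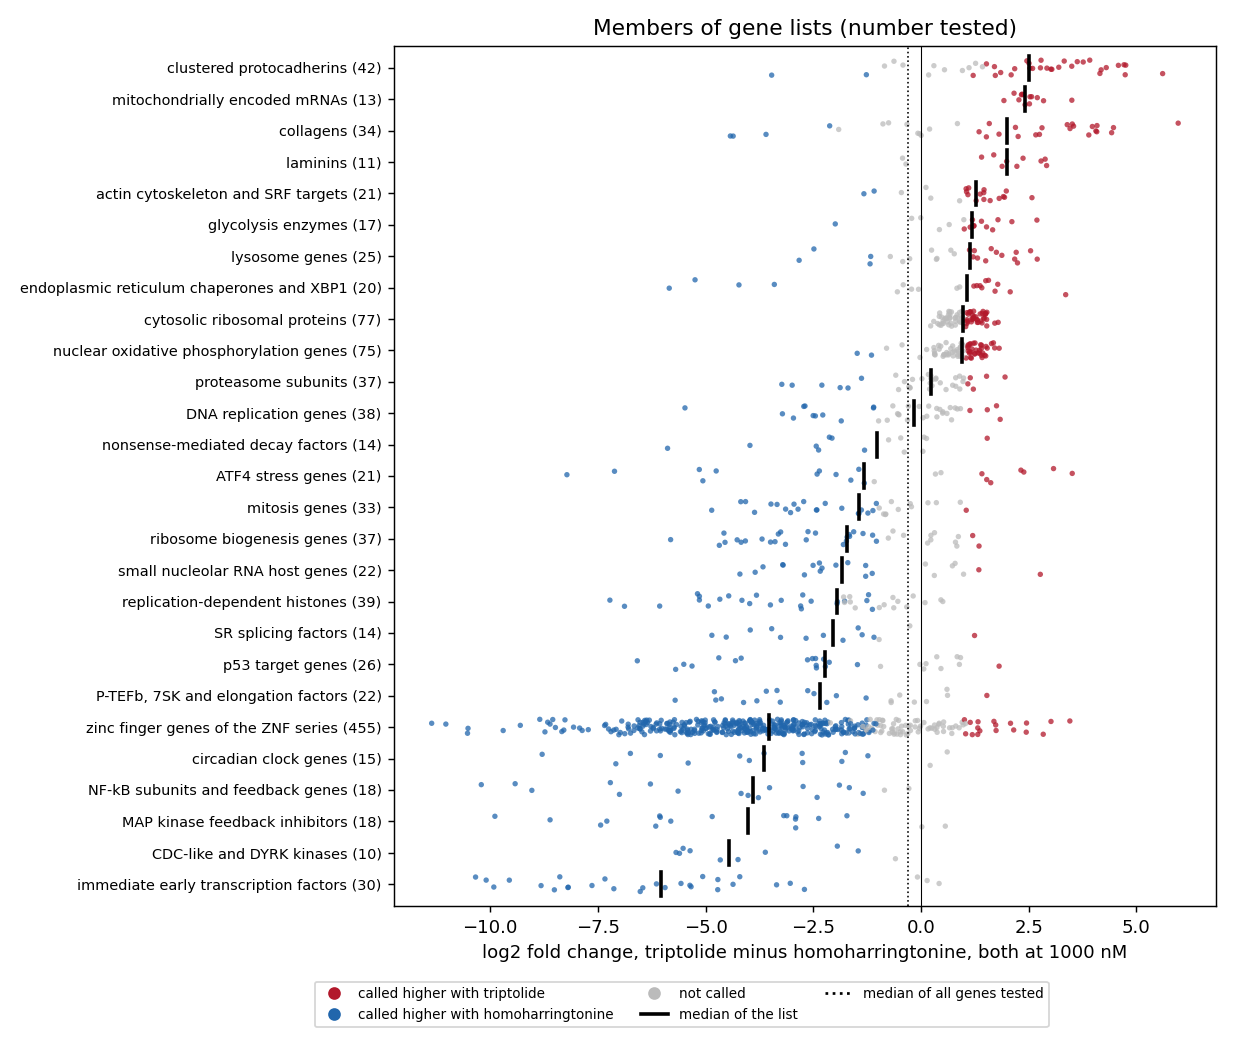
Log2 fold change of triptolide minus homoharringtonine, both at 1000 nM, for each tested member of 27 gene lists; points are coloured by call, thick bars are list medians and the dotted line is the median of all genes. Immediate early transcription factors stand lowest (median -6.04) and clustered protocadherins highest (median 2.52); protocadherins and laminins were listed after the values were seen.

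Stress response genes were divided between the compounds. Of 21 ATF4 stress genes, 11 were higher with homoharringtonine and 7 with triptolide (median -1.31), and both compounds stood below DMSO for many of them, 10 with triptolide and 13 with homoharringtonine. PPP1R15A (GADD34), the phosphatase subunit that reverses the integrated stress response, was at 6.54, 5.91 and 4.83 CPM with triptolide, 2090, 1394 and 1252 CPM with homoharringtonine and 51.4 to 253 CPM in DMSO wells (log2 fold change -8.22 ± 0.27, SE, adjusted p = 9.6e-07). DDIT3 (CHOP), a factor that promotes death, was at 0, 1.09 and 0.397 CPM against 77.3, 59.1 and 49.6 CPM. The cystine transporter SLC7A11 and the serine enzyme PSAT1 went the other way at 3.51 and 3.08, with SLC7A11 near DMSO under triptolide (-0.10) and far below it under homoharringtonine (-3.72). Against DMSO, PPP1R15A and DDIT3 thus rose with homoharringtonine, and SLC7A11 and PSAT1 fell. Of 20 endoplasmic reticulum chaperones and their regulators, 10 were higher with triptolide and 4 with homoharringtonine (median 1.06), or 8 and 4 with library sizes alone. The folding enzyme PDIA4 was at 3.36 and the stress factors XBP1 and ERN1 at -5.84 and -5.24. Of 16 cytosolic heat shock genes, 8 were higher with homoharringtonine and 4 with triptolide (median -1.28), the co-chaperone DNAJB1 at 6.14, 5.31 and 4.04 CPM against 394, 382 and 330.1 CPM, while HSP90AB1, the constitutive HSP90, did not pass (0.34).

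Of 26 p53 target genes tested of 27, 16 were higher with homoharringtonine and 1, BAX, with triptolide (median -2.24). GADD45A, a damage-inducible growth arrest gene, was at 5.34, 4.95 and 4.83 CPM with triptolide, 479, 435 and 435 CPM with homoharringtonine and 21.7 to 78 CPM in DMSO wells. Its 3 groups did not overlap. Within the BCL2 family, 8 of 16 were higher with homoharringtonine and 4 with triptolide (median -1.35). MCL1, the short-lived survival protein, was at 4.81, 6.03 and 5 CPM with triptolide, 852, 949.9 and 1029 CPM with homoharringtonine and 131 to 247 CPM in DMSO wells (log2 fold change -7.59 ± 0.21, SE, adjusted p = 7.6e-07). The survival genes BCL2L1 and BCL2L2 were higher with triptolide, at 1.88 and 2.35. Of these, BCL2L1 was near DMSO under triptolide (-0.36) and lower under homoharringtonine (-2.34). In the MYC and MAX network, 7 of 12 were higher with homoharringtonine and 1 with triptolide (median -1.52), the MYC antagonist MXD1 at 0, 0 and 0.234 CPM against 21.2, 22.7 and 23.4 CPM.

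Cell cycle genes were compared by phase. Of 33 mitosis genes, 21 were higher with homoharringtonine and 1 with triptolide (median -1.44), 21 stood below DMSO with triptolide, and the homoharringtonine median against DMSO was 0.07. KIF11, a spindle motor, was at 9.61, 9.05 and 18.2 CPM against 109, 202 and 326 CPM with DMSO at 71.9 to 228 CPM, and BIRC5 (survivin) was the 1 member higher with triptolide (1.05, but 0.75 with library sizes alone and 0.99 without triptolide replicate 2). DNA replication genes had a median of -0.16 over 38, with 11 higher with homoharringtonine, among them CDC6 at -3.21, and 4 with triptolide, among them the polymerase subunit POLD2 at 1.84. For 20 G1 cyclins, kinases and inhibitors the counts were 7 (35%) and 6 (30%), against 35.9% and 22.6% of all genes (list median -0.19). CCND1 and CDK4, which together drive entry into the cycle, were higher with triptolide at 419, 462 and 412 CPM against 104, 92.3 and 94.3 CPM and 627, 656 and 642 CPM against 132, 114 and 107 CPM. The inhibitor CDKN1B went the other way at 1.47, 0.241 and 0.514 CPM against 20.5, 16.2 and 16.2 CPM, both below its DMSO range of 24.2 to 38.9 CPM. Of 39 replication-dependent histones tested of 64, 24 were higher with homoharringtonine (median -1.94) and 32 stood above DMSO with it (median 1.79), though the mRNAs of these genes mostly lack a poly(A) tail and poly(A) selection catches few of them. H3C14 and H3C15 carried identical values in every well and are near-identical copies, so they hold 1 observation although both are in these counts.

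Of 20 ubiquitin genes and ligase regulators, 13 were higher with homoharringtonine and 2 with triptolide (median -1.76), FBXO5, an inhibitor of the mitotic ligase, at 0.401, 1.69 and 0.56 CPM against 23.9, 44.7 and 60.05 CPM. SKP2, which targets CDKN1B for destruction, was higher with triptolide at 79.6, 88 and 118 CPM against 2.48, 3.1 and 3.45 CPM, and 2 of its 3 triptolide wells lay within the DMSO range of 48.3 to 100.1 CPM. Antioxidant genes of NRF2 held 8 higher with triptolide and 6 with homoharringtonine of 17 (median 0.87), but 4 and 6 with library sizes alone, the iron store FTH1 at 1.52 and GCLC, the rate-limiting enzyme of glutathione synthesis, at -5.08. Of 12 genes of polyamine metabolism, 5 were higher with homoharringtonine and 4 with triptolide (median -0.82), the oxidase SMOX at -4.40 and the synthase SRM at 2.22. The catabolic oxidase and the synthase thus stood on opposite sides. Sensors and kinases of translation stress held 6 genes higher with homoharringtonine and 5 with triptolide of 16 (median 0.48), or 6 and 3 with library sizes alone, with GIGYF2, a repressor recruited to stalled ribosomes, at -3.77 and EIF2AK4 (GCN2), the kinase of amino acid shortage, at 1.94. Of 4 metallothioneins tested of 11, MT1X was higher with homoharringtonine (-2.32).

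Collagens and actin cytoskeleton genes leaned to triptolide, and tubulins did not. Of 34 collagens tested of 44, 21 were higher with triptolide and 4 with homoharringtonine (median 2.00), while 21 stood above DMSO with triptolide (13 with library sizes alone) and 15 stood below and 7 above DMSO with homoharringtonine. COL1A1, the main chain of bone collagen, was at 5596, 4807 and 3659 CPM with triptolide, 375, 256 and 242 CPM with homoharringtonine and 1374 to 2523 CPM in DMSO wells. SPARC, a collagen-binding matrix protein, was at 4265, 4457 and 3834 CPM, 305, 239 and 248 CPM and 1192 to 1708 CPM in the same order. COL12A1 passed in neither direction, with 1290, 1036 and 1393 CPM against 849.6, 1036 and 1116 CPM, and both compounds above its DMSO median of 626 CPM. Of 21 actin cytoskeleton genes, 15 were higher with triptolide and 2, ZYX and VCL of focal adhesions, with homoharringtonine (median 1.28). With library sizes alone, 10 were higher with triptolide (median 0.98). Against DMSO, 14 were higher with triptolide, or 6 with library sizes alone. The call of VCL (-1.09) was lost without any 1 of the 3 homoharringtonine replicates (-0.97 to -0.89), and that of ZYX (-1.32) without replicate 1 (-0.93). MYL9, a myosin light chain, was at 359.8, 405 and 246 CPM against 70.6, 46.3 and 39.8 CPM, and ACTG1, a cytoplasmic actin, did not pass at 3026, 3028 and 2971 CPM against 2867, 2527 and 2339 CPM (0.12), although its wells did not overlap. Tubulins were split by gene, TUBA1B at 7967, 7801 and 8422 CPM against 1958, 1760 and 1680 CPM and TUBB4B at 333, 305 and 278 CPM against 2424, 2054 and 1766 CPM, with 6 of 14 higher with homoharringtonine and 1 with triptolide, in a family of close copies.

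Further families were listed after these values were seen, so their counts describe the data and support nothing. Of 42 clustered protocadherins tested of 53, neuronal adhesion genes of which most sit in 1 exon or share later exons, 30 were higher with triptolide and 2 with homoharringtonine (median 2.52). With homoharringtonine 36 stood below DMSO (median -2.25), while with triptolide 2 stood above and 4 below (median 0.39, -0.045 with library sizes alone). PCDHB5 was at 55.8, 60.6 and 61.4 CPM with triptolide, 2.07, 2.14 and 1.95 CPM with homoharringtonine and 30.4 to 55.8 CPM in DMSO wells, and reads shared between exons and copies make single members uncertain. Integrins held 14 of 23 higher with triptolide and 2 with homoharringtonine (median 1.11), ITGA3 at 3026, 2713 and 2243 CPM against 229.6, 168 and 149.9 CPM. Laminins held 9 of 11 (median 1.99), syndecans and glypicans 7 of 10 (median 2.09), and matrix metalloproteinases, ADAMs and lysyl oxidases 21 of 32 (median 1.64), with MMP14, which cuts collagen at the cell surface, at 5.01. The 265 solute carriers tested, membrane transporters of all kinds, were near the centre (median 0.10, -0.20 with library sizes alone), with 75 higher with homoharringtonine and 59 with triptolide. Of 55 F-box proteins, 27 were higher with homoharringtonine and 7 with triptolide (median -1.24).

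**Figure D3:**
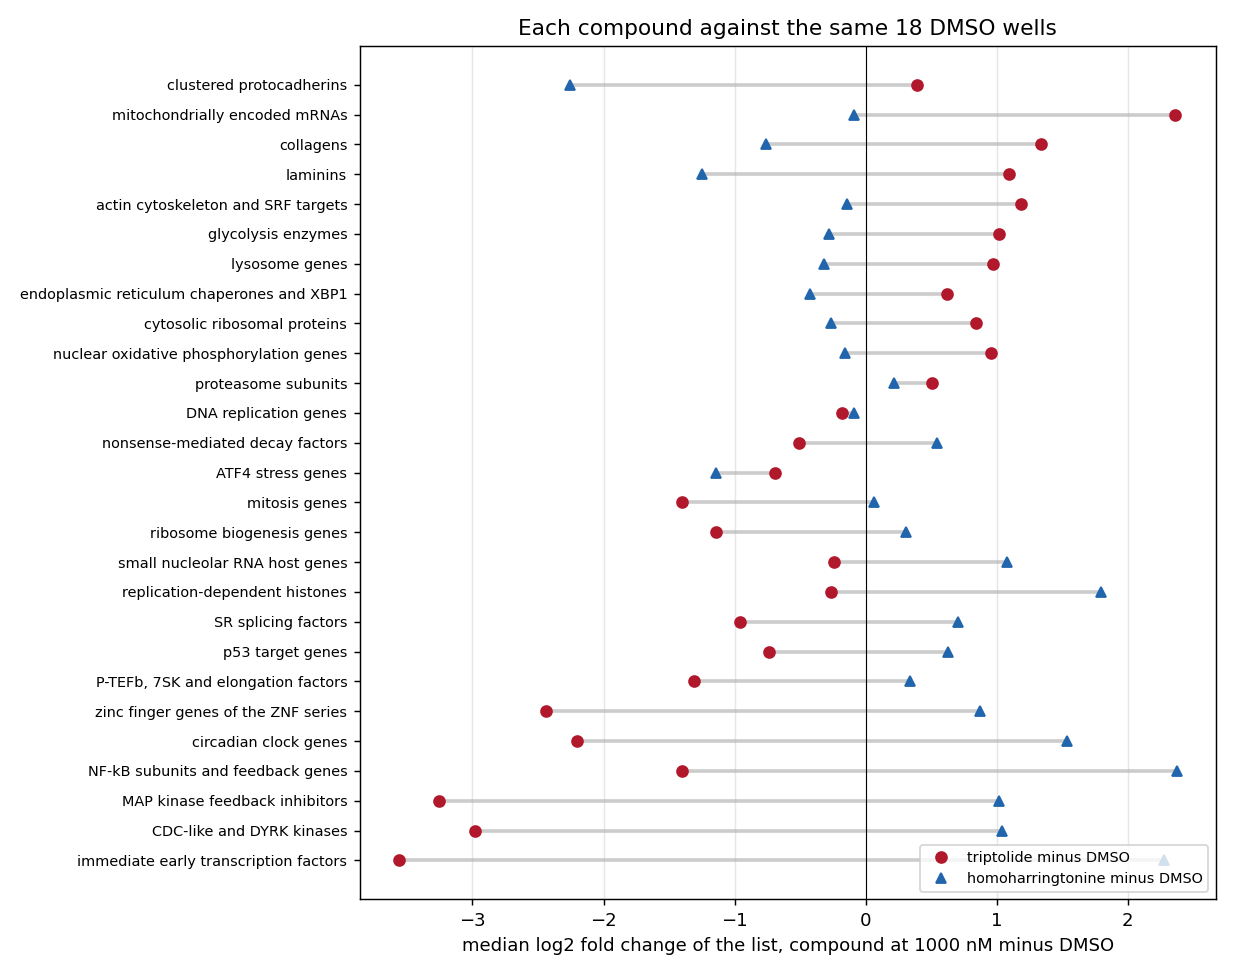
Median log2 fold change of each list against the same 18 DMSO wells, for triptolide (circles) and homoharringtonine (triangles), ordered by the median difference between the compounds. Immediate early transcription factors lie at -3.56 and 2.27, mitochondrially encoded mRNAs at 2.36 and -0.09 and clustered protocadherins at 0.39 and -2.25; with library sizes alone, triptolide minus DMSO moved by a median of -0.44 over all genes.

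Among long noncoding RNA genes, unlike protein-coding genes and pseudogenes, more were higher with triptolide than with homoharringtonine under TMM scaling. The shift of all genes with library sizes alone, a median of -0.31, exceeds the median of this class. Counts of the class with that scaling are not given here. Of 1773 tested, 28.4% were higher with triptolide and 24.1% with homoharringtonine (median 0.24), against 22.1% and 37.8% of 14513 protein-coding genes (median -0.39) and 15.5% and 32.9% of 989 pseudogenes (median -0.18). Against DMSO, 271 of the long noncoding RNA genes were higher and 429 lower with triptolide (median -0.092). With homoharringtonine 328 of them were higher and 619 lower (median -0.496). As a share of counts the class did not follow, at 0.691%, 0.752% and 0.661% with triptolide and 0.821%, 0.760% and 0.719% with homoharringtonine, both below the DMSO range of 0.844% to 1.005% (exact permutation test between the compounds, two-sided p = 0.2). Of 14 nuclear long noncoding RNAs, 6 were higher with triptolide and 2 with homoharringtonine (median 0.50). NEAT1, the scaffold of paraspeckles, was at 103, 92.1 and 117 CPM with triptolide, 13.9, 17.4 and 17.6 CPM with homoharringtonine and 35.4 to 93.2 CPM in DMSO wells. The largest differences upward were of GAS6-AS1 (5.60), NKILA (5.52), a noncoding RNA that restrains NF-kB, and the unnamed ENSG00000272872 (4.95). NKILA was at 17.6, 16.1 and 17.9 CPM against 0.429, 0.291 and 0.325 CPM, the reverse of the order of NFKBIA. Downward, LINC01511 (-7.50) and ENSG00000228830 (-7.02) followed TM4SF18-AS1, which had 1 count with triptolide and 2325 with homoharringtonine, a ratio of 1236 (221.6 to 48846). The kit keeps strand, but whether the counting used it is not given in the sources used here, so an antisense gene may hold reads of its partner.

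Gene structure was set beside the calls for 14500 nuclear protein-coding genes, as a description, since genes are not replicates and these features go together. Genes with few exons leaned to homoharringtonine: 54.9% of 319 genes with a single exon and 52% of 712 genes with 2 exons were higher with it, against 35.4% of 6853 genes with 10 or more. Against DMSO, 22 of the 319 and 53 of the 712 were higher and 185 and 416 lower with triptolide (medians -1.64 and -1.733). With homoharringtonine 80 and 150 were higher and 105 and 220 lower (medians -0.365 and -0.306), so the medians lay below DMSO with both compounds. By genomic span the shares higher with homoharringtonine lay between 36.5% and 40.1% in the 5 classes under 200 kb and at 29% at 200 kb or more. GC content of the transcript went with triptolide, as 13.3% of genes under 40% GC and 31.9% at 60% GC or more were higher with it, and the median rose from -0.72 to 0.08. Fragment lengths differed between wells, at 182, 155 and 210 bases with triptolide and 168, 206 and 214 bases with homoharringtonine, and their part in the GC pattern was not tested. By the pentamer ATTTA in the 3′ UTR, 31.4% of genes with none, 38% with 1 or 2, 42.5% with 3 to 5, 43% with 6 to 9 and 39.8% with 10 or more were higher with homoharringtonine, so that the share did not rise further in the last class. Long 3′ UTRs hold more pentamers, and by their length the share was 31.3% under 250 bases, 40.8% at 1000 to under 2000 bases and 39.9% at 2000 bases or more higher with homoharringtonine. Within 3′ UTRs of 500 to under 1000 bases the order remained, at 35% of 897 genes with no pentamer and 45.6% of 546 genes with 3 or more. By the nonamer TTATTTATT, which contains the pentamer, the shares were 37.2% with none, 43.1% with 1 and 46.9% with 2 or more (medians -0.34, -0.80 and -0.97).

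**Figure D4:**
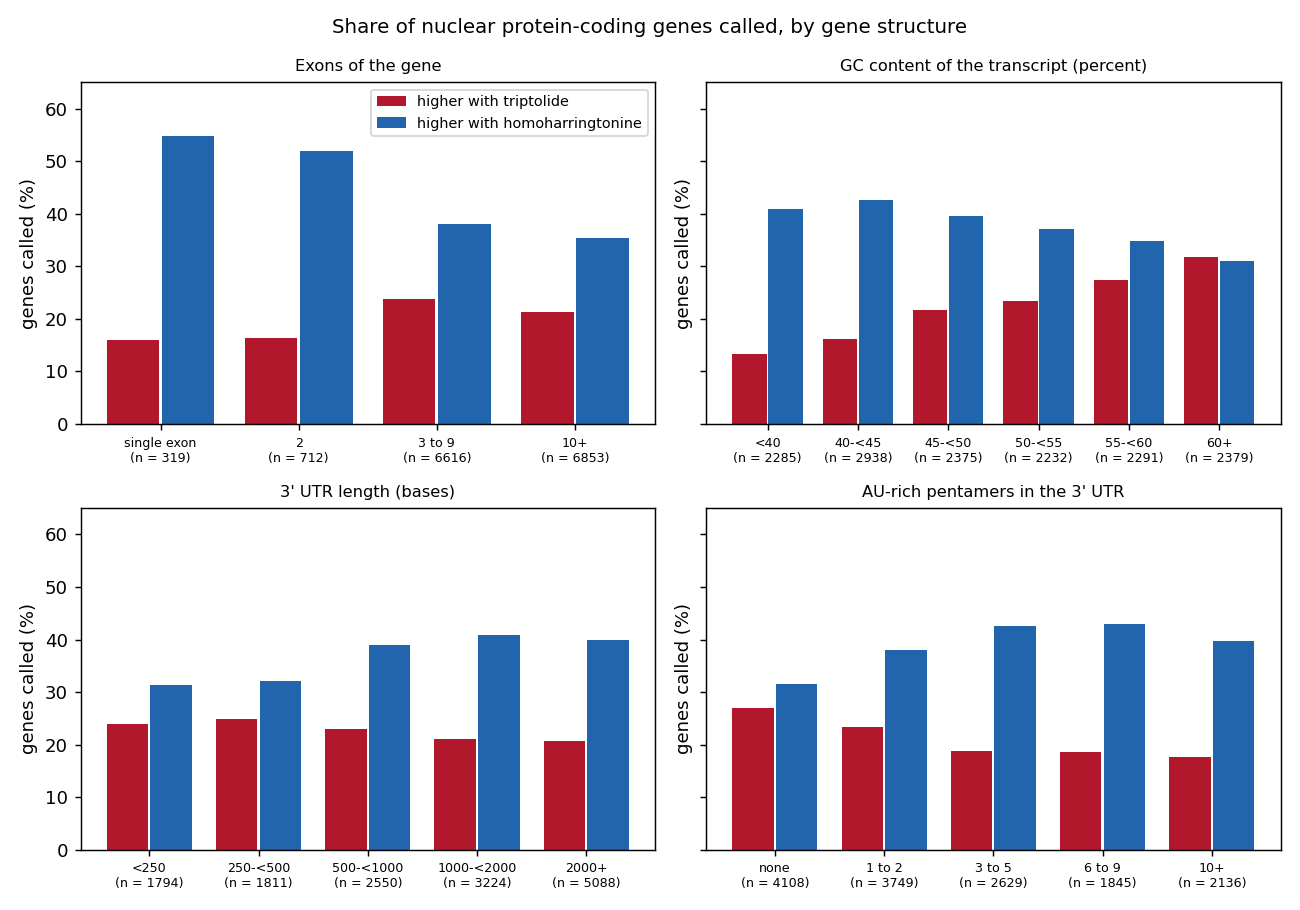
Percent of nuclear protein-coding genes called higher with triptolide or homoharringtonine, by number of exons, GC content of the transcript, 3′ UTR length and AU-rich pentamers in the 3′ UTR, with the number of genes tested under each bar pair. Single-exon genes were called higher with homoharringtonine in 54.9% of cases, and genes at 60% GC or more were called higher with triptolide in 31.9%.

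Short sequence motifs were searched on both strands in the RefSeq promoters of GRCh38.p14, 300 bases from 250 before to 50 after the start, for the 11571 tested nuclear protein-coding genes that matched by symbol. The TATA box TATAAA stood in 4.98% of promoters of genes higher with triptolide, 7.47% of those higher with homoharringtonine, 5.98% of those not called and 11.9% of all 27305 promoters. The CRE letters TGACGTCA stood in 2.17%, 4.04%, 2.91% and 1.98% in the same order, and the ETS letters CCGGAAGT in 4.43%, 10.2%, 8.03% and 4.44%. NRF1 letters (GCGCATGCG) were in 2.77%, 3.84%, 3.22% and 2.10%, kappa B letters (GGAATTTCC) in 0.316%, 0.681%, 0.216% and 0.472%, and CCAAT in 32.8%, 38.7%, 36% and 35.7%. Each of the 6 motifs was thus more frequent among genes higher with homoharringtonine than among genes higher with triptolide, and a match does not show that a factor binds there. The 12 genes that led in the direction of homoharringtonine had a median of 2.5 exons (2 to 6) and a median span of 4.55 kb, against 11 exons (1 to 52) and 24.6 kb for the 12 that led in the direction of triptolide.

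The difference between the compounds was set against the same difference at the other doses, in fits of 12 wells with an interaction term. Between 100 nM and 1000 nM, 1508 of 18441 genes (8.18%) had a higher value of triptolide minus homoharringtonine at 1000 nM and 3481 (18.9%) a lower one. Between 10000 nM and 1000 nM, 15 of 18739 genes (0.0800%) had a higher value at 1000 nM and 96 (0.512%) a lower one, or 68 and 362 without triptolide replicate 3. For immediate early transcription factors the median difference was -1.75 at 100 nM, -6.04 at 1000 nM and -6.27 at 10000 nM, and 28 of the 30 were lower at 1000 nM than at 100 nM. The medians of zinc finger genes were -1.45, -3.52 and -3.49, with 246 of 455 lower at 1000 nM than at 100 nM, and those of p53 target genes -0.31, -2.24 and -1.80, with 13 of 26 lower. ATF4 stress genes changed side, at 0.79, -1.31 and -0.94. By contrast, medians of collagens (2.09, 2.00 and 2.44), ribosomal proteins (0.55, 0.98 and 1.59) and ribosome biogenesis genes (-1.73, -1.71 and -1.52) kept their sign at all 3 doses.

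Single genes showed how wide this range was. NFKBIA went from -3.19 at 100 nM to -10.21 at 1000 nM and -9.83 at 10000 nM (interaction between 100 nM and 1000 nM -6.92, adjusted p = 2.3e-08). BAMBI went from -1.54 to -9.46 and -9.02 (interaction -7.82, adjusted p = 1.2e-06). Both differences were thus several log2 units larger at 1000 nM than at 100 nM. WNT9A was already at -7.62 at 100 nM, and its interaction between 100 nM and 1000 nM still passed (-1.99, adjusted p = 0.013). SDC1 was already at 5.15 at 100 nM, and its interaction did not pass (0.58, adjusted p = 0.1). FOS was at -11.79 at 10000 nM, beyond its -9.56 at 1000 nM (interaction 2.30, adjusted p = 0.024).

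**Figure D5:**
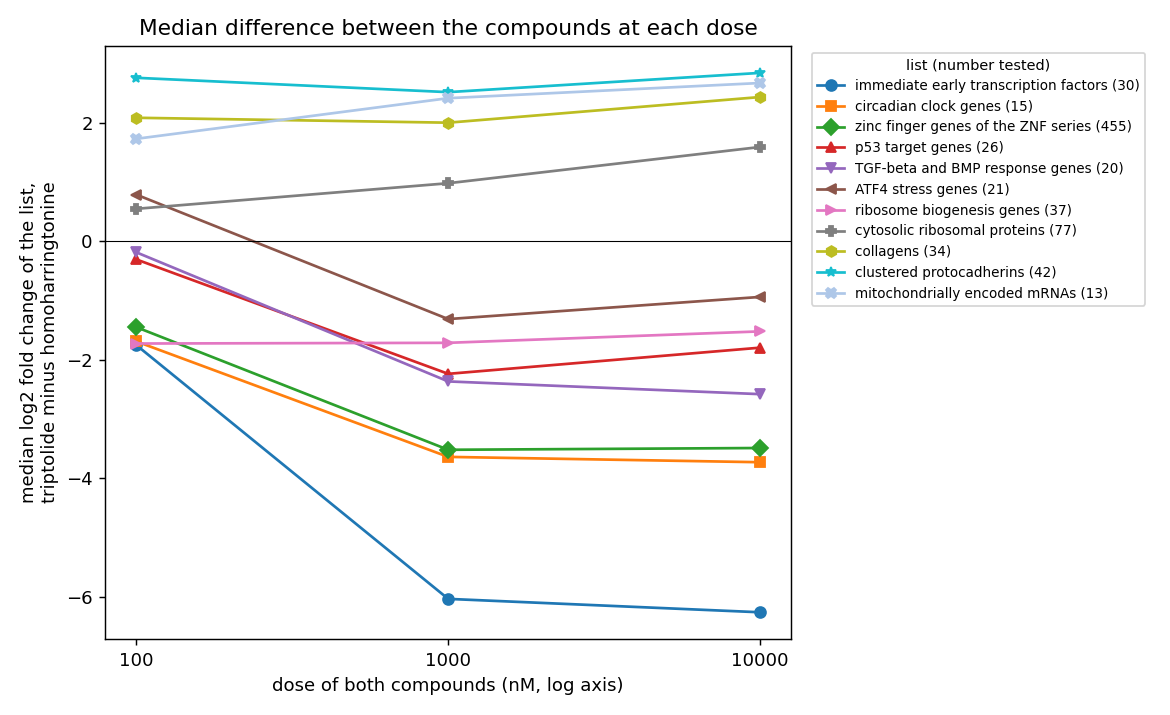
Median log2 fold change of triptolide minus homoharringtonine over the members of 11 gene lists at 100, 1000 and 10000 nM of both compounds (log dose axis); lines join the medians of a list. Immediate early transcription factors run from -1.75 to -6.04 and -6.27, and clustered protocadherins stay between 2.52 and 2.85.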

How the data were processed

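The authors quantified poly(A) RNA-seq reads with RSEM on GRCh38, per the labels and the methods of the study, and deposited 1 table per well with expected counts and TPM for each Ensembl gene. The submitters' processing notes also list HTSeq and DESeq2 with no role, and the release of the annotation, the version of RSEM and the strand setting of the counting are not given in the sources used here. Deposited expected counts, estimates that divide shared reads among similar genes, were rounded to whole numbers. The deposited TPM values were read and entered no test.

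Wells were grouped by their compound and dose labels. Triptolide and homoharringtonine wells (3 and 3) were compared with edgeR 4.0.16 in R 4.3.3 (TMM scaling, filterByExpr with a minimum count of 10, quasi-likelihood test, Benjamini-Hochberg adjustment over 17704 genes). A gene was called at an adjusted p under 0.05 and an absolute log2 fold change above 1. The SE of a log2 fold change was its absolute value divided by the square root of the quasi-likelihood F statistic. A fit of 24 wells with 18 DMSO wells gave the direction of each compound, and fits of 12 wells with an interaction term gave the comparison of doses. Shares of counts were compared with an exact two-sided permutation test (scipy 1.17.1), and 95% counting intervals and the floor of 3 counts cover counting error only. Gene positions, exons and UTRs came from GENCODE 44 on GRCh38 (56104 of 60371 gene IDs matched) and promoters from RefSeq. The fits were tested on simulated data. No wells agreed within counting noise, so none was merged.

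The compared wells and the gene lists were chosen with earlier results of these data known, and 7 lists were added after the values were seen. Named genes were ERCC3 and EIF4E, the 12 protein-coding genes with the largest difference in each direction (mean of at least 10 CPM in the higher group, no overlap between wells), up to 2 called members of each list in each direction with the largest difference and a mean of at least 10 CPM, the uncalled member of each list with the highest mean CPM, and the 3 long noncoding RNAs with the largest difference in each direction. The unblocked design was the main one. Alternatives were other scalings, DESeq2 1.42.0, other filters, a replicate block and leaving out each of the 6 compared wells in turn. DMSO replicate 10 was also left out of the fit with DMSO wells. Other DMSO wells and wells at other doses were not left out in turn. Some items are not reported here.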

Additional observations from a re-analysis of the deposited data

Results flagged for a closer look

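The size of the difference between triptolide and homoharringtonine depended on the dose, which the interaction terms in edgeR tested directly. Between 100 nM and 1000 nM, 1508 genes (8.18%) had a higher and 3481 (18.9%) a lower value of triptolide minus homoharringtonine at 1000 nM. Among the 1508 genes the median difference went from -0.23 at 100 nM to 1.31 at 1000 nM, and among the 3481 it went from -0.62 to -3.40. Between 10000 nM and 1000 nM, 15 genes (0.08%) had a higher and 96 (0.512%) a lower value at 1000 nM. Among these the medians were -5.85 at 10000 nM and -3.72 at 1000 nM for the 15, and 1.41 and -0.06 for the 96. All 4 sets were picked by the same interaction tests, so the direction of their median shifts was fixed by the choice.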

How the results depend on the processing

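Of 132 named genes under 12 alternative settings, 1562 values kept their direction and their side of the threshold, and among the list medians 684 values moved by less than the spread between wells, 59 moved by more and 1 reversed. The count of 4008 calls toward triptolide became 2870 and that of 6360 toward homoharringtonine 3869 when at least 10 counts were required in every well, fewer genes then being tested. Genes above DMSO with triptolide numbered 837 with library sizes only, against 2532. Genes with a difference above that at 10000 nM numbered 9 with DESeq2 size factors against 15. They numbered 5 to 68 when 1 of the 6 wells at 1000 nM was left out, the extremes being without homoharringtonine replicate 2 and without triptolide replicate 3. Genes with a difference below that at 10000 nM numbered 35 with DESeq2 size factors against 96. They numbered 50 to 362 when 1 of the same 6 wells was left out, the extremes being without homoharringtonine replicate 1 and without triptolide replicate 3. Small differences changed sign with library sizes only for ERCC3 (-0.24), COL12A1 (-0.10), CLOCK (-0.10) and ACTG1 (-0.18). When 1 well was left out, the log2 fold change ranged from -0.003 to 0.242 for ERCC3, from -0.223 to 0.708 for CLOCK and from -0.028 to 0.655 for EEF1A1, each lowest without triptolide replicate 3. That of SRF ranged from -0.137 to 0.231 and was 0.025 in the fit with DMSO wells. The median of the endothelial markers, relative to all genes, ranged from -0.668 to 0.230, and turned positive without triptolide replicate 1. The causes of these changes were not tested, and none of these named genes was called.

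Same-numbered wells of the compounds correlated at 0.222, -0.13 and 0.447 in their deviations from the group means. Differently numbered wells correlated at -0.498 to 0.284. With 3 wells a group these values cannot decide whether the numbers pair the wells. With a replicate block, 3890 genes were called toward triptolide and 6460 toward homoharringtonine, 1338 and 3074 genes had a higher and a lower difference than at 100 nM, and 12 and 78 than at 10000 nM. Thinning the counts to the shallowest of the 6 wells, chosen after seeing the data, gave 3721 and 5208 genes. Depth limits the genes under about 10 counts in triptolide replicates 1 and 2.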
